A study of Mus musculus with 6 samples.

Results

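Expression of 8 haematopoietic transcription factors was examined in FLK1+ mesodermal cells that carried or lacked Scl. The 8 genes, Gfi1, Gfi1b, Ikzf1, Ikzf2, Myb, Nfe2, Mecom and Hhex, were chosen by name as regulators of blood specification outside the GATA, ETS and RUNX families. All 8 were found by their gene symbol among 14005 genes listed in the expression table, and all 8 were among the 13991 genes with at least 0.5 CPM (read counts scaled to the size of the library) in at least 3 libraries, which were the genes tested.

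Mouse embryonic stem (ES) cells were differentiated as embryoid bodies (EBs). At day 3.5, cells with FLK1, a receptor for VEGFA, on their surface were collected with antibody-coupled magnetic beads. Such mesodermal cells can give rise to blood and to endothelium. RNA-seq was available for 6 libraries, 3 from the WT ES cell line J1 and 3 from a Scl-/- ES cell line, from 3 independent differentiations. As 1 line stood for each genotype, differences between the lines cannot be told apart from the absence of Scl. The libraries held between 38623641 and 47621120 reads on the listed genes, so that 1 read was worth 0.0205 to 0.0261 CPM.

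These proteins act at successive steps of blood formation. Gfi1 and Gfi1b are zinc finger repressors that recruit the histone demethylase Kdm1a and its partner Rcor1 and silence endothelial genes as blood cells emerge from haemogenic endothelium. Ikzf1 (Ikaros) and Ikzf2 (Helios) are zinc finger proteins best known in lymphoid cells, Myb is required for definitive haematopoiesis, Mecom (Evi1) for haematopoietic stem cells, and Nfe2 pairs with small Maf proteins in erythroid cells and megakaryocytes. Hhex is a homeobox protein of early blood, endothelial and endodermal progenitors.

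The gene Tal1, which encodes SCL, was examined first. It stood at 303, 182 and 306 CPM in WT replicates 1, 2 and 3 and at 9.35, 5.68 and 5.87 CPM in Scl-/- replicates 1, 2 and 3, so that 2.64% of the WT mean was left. Kdr, the gene for FLK1, was high in every library, at 868, 832 and 867 CPM in WT and 724, 777 and 810 CPM in Scl-/- cells (log2 fold change -0.15), and did not pass the test (limma, adjusted p = 0.456). Fold changes here are Scl-/- against WT on the log2(CPM + 0.5) scale, which understates the change of genes with few reads. A gene was called when limma's adjusted p was under 0.05 and its log2 fold change exceeded 0.48 in size.

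Of the 8 regulators, 6 were called lower in Scl-/- cells (Gfi1b, Ikzf1, Ikzf2, Myb, Mecom and Hhex), against 1.57% of all genes tested, and none was called higher. The 8 were chosen with earlier results of these data known, so the shares of all genes given here do not test the set. The study itself, with edgeR, had named Gfi1, Gfi1b, Ikzf1, Ikzf2 and Nfe2 among the SCL-bound genes that differ between these genotypes. Across all genes 330 were called, 219 lower and 111 higher, which is 2.36% in either direction. Same-numbered WT and Scl-/- libraries deviated together, and with the replicate block that takes account of this pairing all 8 regulators were called lower, against 6.6% of genes tested, and 1768 genes (12.6%) were called in either direction. For 7 of the 8 the highest Scl-/- library lay below the lowest WT library, as it did for 10.7% of genes, and Nfe2 was the exception. All 8 were lower in each of the 3 same-numbered pairs, as were 26.4% of genes. Gfi1 and Gfi1b reached the minimum level through their WT libraries alone and so could differ in 1 direction only. Of the other 6 regulators, 5 were called without the block and 6 with it. The median log2 fold change was -2.43 over the 8 regulators and 0.01 over all genes tested. Without the block the calls leaned on WT replicate 1. When it was left out, 44 genes and 2 of the regulators, Ikzf2 and Myb, were called. Every fit that left out a library, here and below, had no block. How the calls with the block depend on single libraries was not tested. With the block and all libraries, limma's adjusted p was 0.000241 for Gfi1b, 0.000101 for Ikzf1, 0.000183 for Mecom and 0.000575 for Hhex. A smaller share of cells expressing a gene and less RNA per cell cannot be told apart in these bulk samples.

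**Figure D1:**
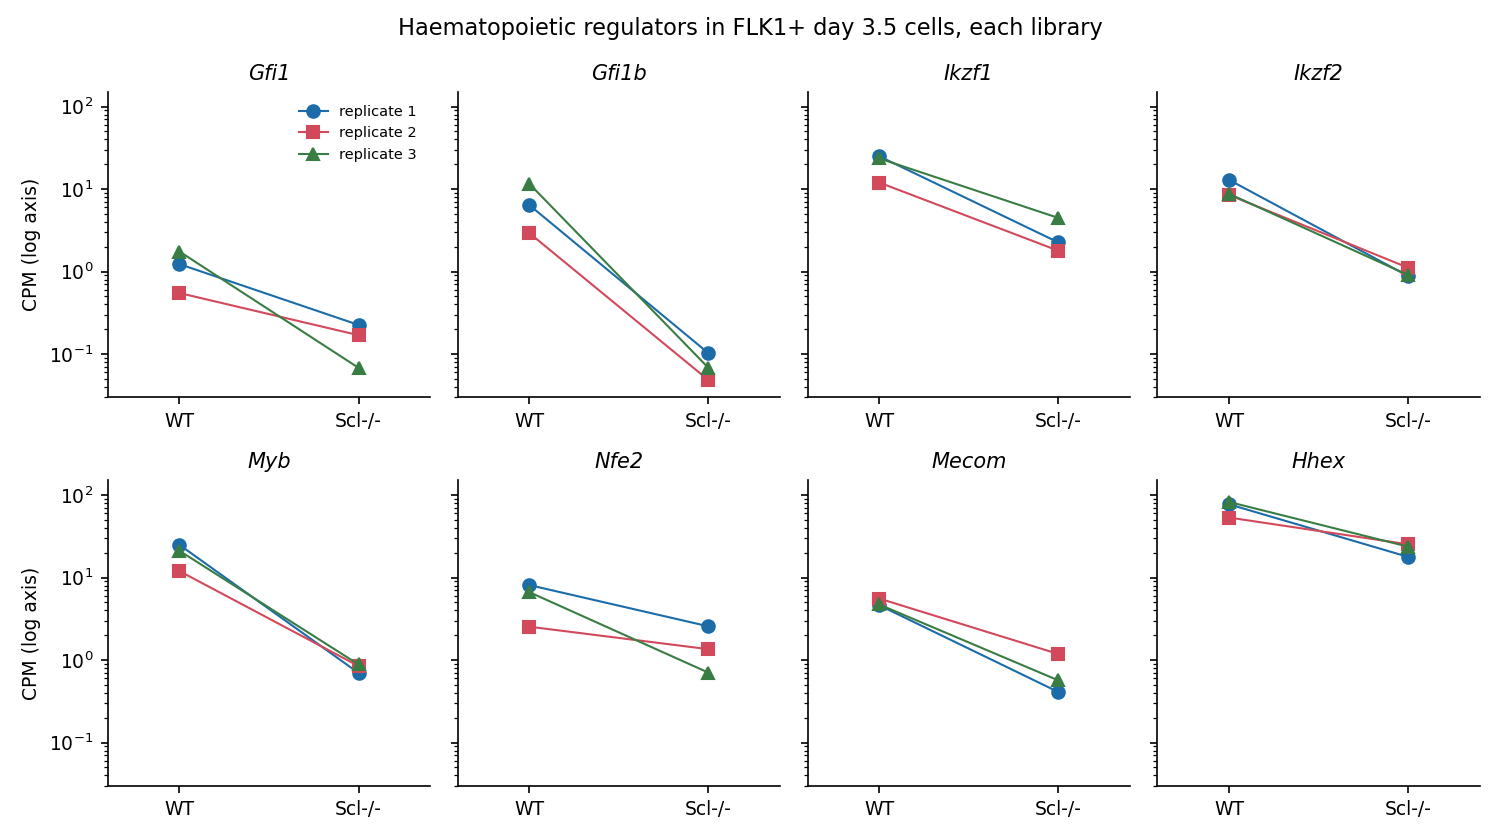
CPM (log axis) of each of the 8 regulators in the 3 WT and 3 Scl-/- libraries, with lines joining libraries of the same replicate number. Every line goes down; those of Hhex run from 53.3 to 82.4 CPM in WT to 17.8 to 25.3 CPM in Scl-/- cells, and those of Gfi1b end at 0.0483 to 0.102 CPM.

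The GFI1 family repressors had the lowest CPM of the 8 regulators in Scl-/- cells. Gfi1b (ENSMUSG00000026815, chr2:28464970-28477502 in mm9) was at 6.40, 2.93 and 11.6 CPM in WT replicates 1 to 3 and at 0.102, 0.0483 and 0.0680 CPM in Scl-/- replicates 1 to 3. The WT libraries were spread 3.96-fold, and all lay far above the Scl-/- libraries. The latter values rest on 5, 2 and 3 reads, against 255, 112 and 477 reads in WT, and 3 reads, taken as the floor of detection, correspond to 0.0615 to 0.0725 CPM in these libraries. What was left was 1.05% of the WT mean, with a 95% counting interval from 0.503% to 1.95%, which covers counting error only. The log2 fold change was -3.52 (SE 0.42, limma adjusted p = 0.00948), and the call was lost without WT replicate 1 (limma adjusted p = 0.0705).

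Gfi1 (ENSMUSG00000029275, chr5:108145674-108155056) was low in both groups. It stood at 1.23, 0.549 and 1.75 CPM in WT and at 0.225, 0.169 and 0.0680 CPM in Scl-/- replicates 1 to 3. The groups did not overlap, but the last Scl-/- library held 3 reads and the whole Scl-/- group 21, against 142 in WT. The log2 fold change of -1.30 (SE 0.31) did not pass the test (limma adjusted p = 0.0895), and passed it with the replicate block (limma adjusted p = 0.0119) or without WT replicate 2 (limma adjusted p = 0.0307), a fit in which it was not tested when the minimum level was applied again to the 5 libraries left. With a pseudocount of 0.1 the log2 fold change of Gfi1 was -2.25, and with 1 it was -0.88. On the CPM scale 13.1% was left, with a counting interval from 7.89% to 20.9%.

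Both Ikaros family members were called lower. Ikzf1 (ENSMUSG00000018654, chr11:11585006-11672929) was at 25.0, 12.0 and 23.5 CPM in WT and at 2.25, 1.79 and 4.47 CPM in Scl-/- cells. Its level in Scl-/- replicate 3 was the highest of that group, 2.50 times the lowest. Ikzf1 thus had a log2 fold change of -2.64 (SE 0.37, limma adjusted p = 0.0156). This call was lost without WT replicate 1 (limma adjusted p = 0.0931), WT replicate 3 (0.062) or Scl-/- replicate 2 (0.0546).

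Ikzf2 (ENSMUSG00000025997, chr1:69577788-69732534) was at 12.9, 8.47 and 8.74 CPM in WT and at 0.881, 1.11 and 0.907 CPM in Scl-/- cells. The Scl-/- libraries lay within 1.26-fold of each other and at 9.63% of the WT mean. Its log2 fold change was -2.82 (SE 0.21, limma adjusted p = 0.00159), and it was called whichever library was left out. The chromosomes that carry this pair of genes had medians away from 0: the median log2 fold change was 0.31 over 1211 genes of chromosome 11, which holds Ikzf1, and -0.29 over 789 genes of chromosome 1, which holds Ikzf2. Chromosome Y, with 4 genes tested and none of the regulators, had a median of 1.75. With each chromosome's median removed, Ikzf1 had a log2 fold change of -2.95 and Ikzf2 of -2.54, and both were called.

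Myb (ENSMUSG00000019982, chr10:20844736-20880790) had the lowest log2 fold change of the 8 on the log2(CPM + 0.5) scale; with a pseudocount of 0.1 that of Gfi1b was lower (-5.16 against -4.36). It stood at 24.9, 12.0 and 21.1 CPM in WT and at 0.697, 0.846 and 0.884 CPM in Scl-/- cells. The Scl-/- libraries were close together, on 34, 35 and 39 reads, and the group mean was 4.19% of that in WT. For Myb the log2 fold change was -3.86 (SE 0.27, limma adjusted p = 0.00148), called whichever library was left out.

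Mecom (ENSMUSG00000027684, chr3:29850221-30446930) differed from the other regulators in its spread over WT libraries. It was at 4.62, 5.57 and 4.71 CPM in WT, the highest value being in replicate 2, and at 0.410, 1.18 and 0.567 CPM in Scl-/- cells, again highest in replicate 2. The WT libraries lay within 1.21-fold of each other and 14.5% of their mean was left in Scl-/- cells. The log2 fold change was -2.21 (SE 0.26, limma adjusted p = 0.00931), and the call was lost without WT replicate 1 (limma adjusted p = 0.0676).

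Nfe2 (ENSMUSG00000058794, chr15:103078643-103088834) was at 8.10, 2.54 and 6.65 CPM in WT and at 2.56, 1.35 and 0.703 CPM in Scl-/- cells. WT replicate 2 and Scl-/- replicate 1 were at nearly the same level, so that the groups overlapped. The log2 fold change of -1.59 (SE 0.47) did not pass the test (limma adjusted p = 0.14), and passed it with the replicate block (limma adjusted p = 0.00859) or without WT replicate 2 (limma adjusted p = 0.0487), but not when the minimum level was applied again to the 5 libraries left (limma adjusted p = 0.0542).

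Hhex (ENSMUSG00000024986, chr19:37507377-37515218) stood at 77.2, 53.3 and 82.4 CPM in WT and at 17.8, 25.3 and 23.7 CPM in Scl-/- cells, with 31.3% of the WT mean left on 8510 reads in WT and 2956 in Scl-/- cells. Hhex fell by 1.64 on the log2 scale (SE 0.20, limma adjusted p = 0.0102), and the call was lost without WT replicate 1 (limma adjusted p = 0.073).

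**Figure D2:**
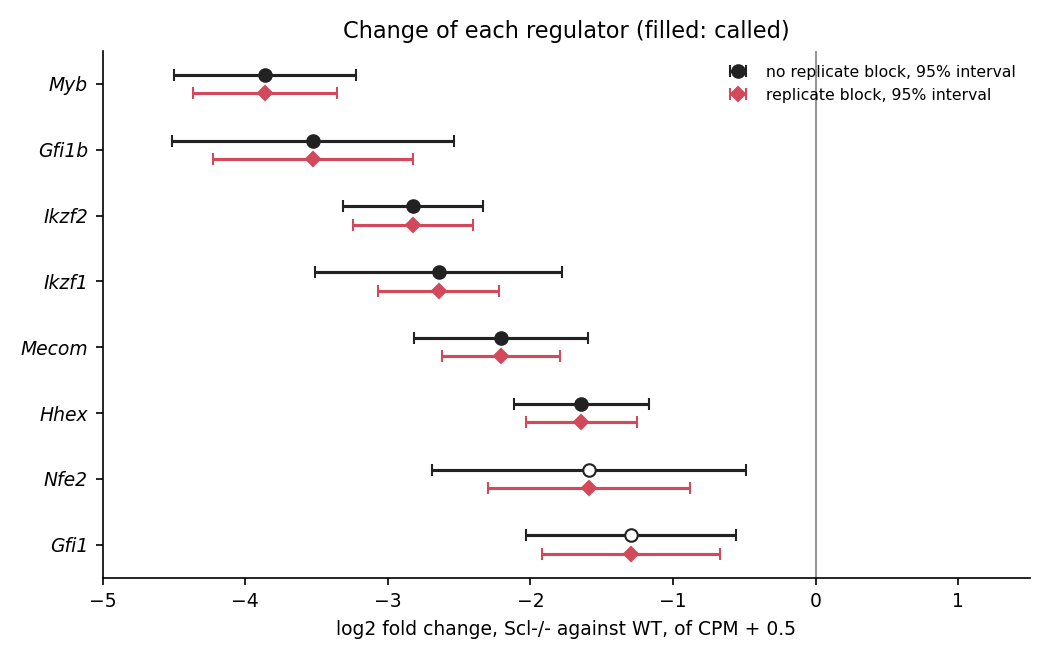
Log2 fold change of each regulator, Scl-/- against WT, with 95% intervals from the fit without (black circles) and with (red diamonds) the replicate block; filled symbols are called. All intervals lie below 0, from Myb at -3.86 to Gfi1 at -1.30, and the open symbols are those of Nfe2 and Gfi1 without the block.

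WT replicate 2 was the lowest WT library for every regulator but Mecom. Its level was 32.6% of the mean of the other WT libraries for Gfi1b, 34.4% for Nfe2, 36.9% for Gfi1, 49.5% for Ikzf1, 52.0% for Myb, 66.9% for Hhex and 78.2% for Ikzf2, against 119% for Mecom. Tal1 itself was at 59.9% there. The share left within a same-numbered pair also differed between pairs. It was 18.3%, 30.8% and 3.89% for Gfi1 and 31.6%, 53.4% and 10.6% for Nfe2 in pairs 1, 2 and 3, but 2.80%, 7.07% and 4.19% for Myb. Gfi1b was at or under 1.65% in every pair. Over the 6 libraries the 28 correlations between regulators had a median Pearson r of 0.94, the lowest, 0.71, being that of Nfe2 with Mecom; the points share the split between genotypes.

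**Figure D3:**
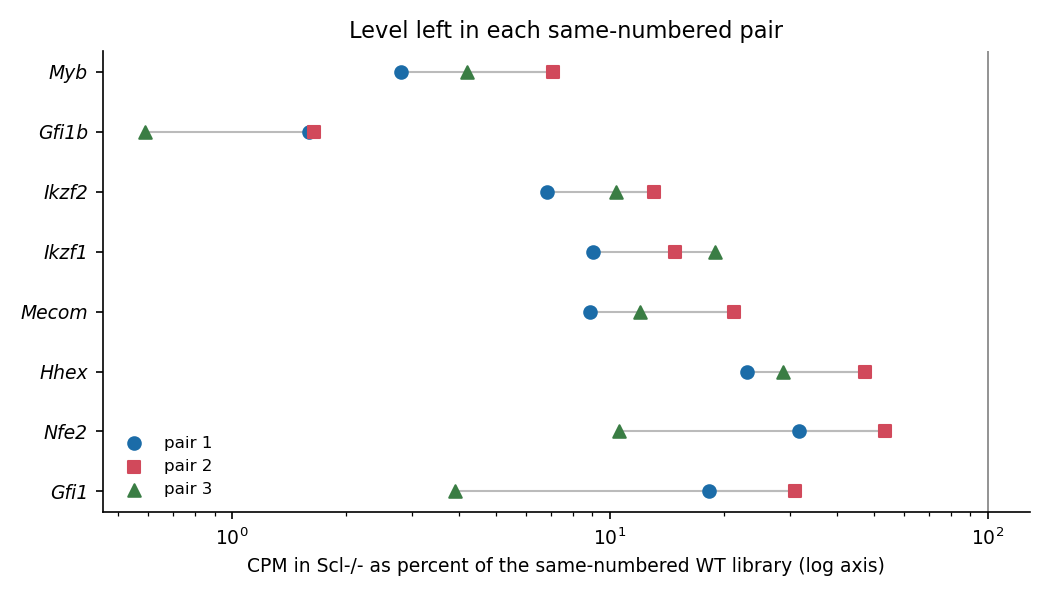
CPM in each Scl-/- library as a percent of the WT library with the same replicate number (log axis), for each regulator; the grey line marks 100%. Every point lies below it, with the widest spread for Gfi1 (3.89% to 30.8%) and Nfe2 (10.6% to 53.4%).

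To compare levels between genes, CPM was divided by exon length in kb. In WT cells the order was Hhex (18.5 CPM per kb), Myb (5.12), Gfi1b (3.81), Ikzf1 (3.41), Nfe2 (1.93), Ikzf2 (1.07), Mecom (0.469) and Gfi1 (0.362), beside a median of 9.45 CPM per kb over all genes tested. Only Hhex against Myb and Ikzf2 against Mecom were neighbours in this order whose WT libraries did not overlap. In Scl-/- cells the order became Hhex (5.79 CPM per kb), Nfe2 (0.515), Ikzf1 (0.479), Myb (0.214), Ikzf2 (0.103), Mecom (0.0681), Gfi1 (0.0475) and Gfi1b (0.0399). Gfi1b thus went from place 3 to the last, and its Scl-/- libraries overlapped those of Gfi1. Scl-/- libraries also overlapped between Nfe2 and Ikzf1, between Ikzf2 and Mecom, and between Mecom and Gfi1.

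Promoters were compared because all 8 genes were lower in every same-numbered pair. RefSeq promoters (GRCm38.p6, 250 bases before to 50 bases after a transcription start) were matched for 6 of the 8 regulators, Gfi1, Gfi1b, Ikzf1, Myb, Mecom and Hhex, with 9 starts in all; Ikzf2 and Nfe2 had no entry. SCL binds E-boxes as a dimer with E proteins and often works in a complex with GATA factors, so 3 motifs were searched on both strands: the E-box CANNTG, a GATA motif (GATA with A or T before it and A or G after it), and CTG followed by 8 or 9 bases and GATA, which can overlap either of the others. These motifs were chosen after the sequences had been seen. An E-box was present in 72.3%, a GATA motif in 29.8% and the pair of CTG and GATA in 4.69% of the 32817 promoters of this length. Read 5′ to 3′ on the strand of the gene, with E-boxes and GATA motifs in capitals, are those of Gfi1b, with the lowest share left, Mecom, with a GATA motif at each of its starts, and Myb, with the lowest log2 fold change on the log2(CPM + 0.5) scale. The Gfi1b promoter lies at chr2:28621933-28622232 (minus strand), those of Mecom at chr3:30509710-30510009 and chr3:30013155-30013454 (minus strand), and that of Myb at chr10:21160935-21161234 (minus strand).
Gfi1b: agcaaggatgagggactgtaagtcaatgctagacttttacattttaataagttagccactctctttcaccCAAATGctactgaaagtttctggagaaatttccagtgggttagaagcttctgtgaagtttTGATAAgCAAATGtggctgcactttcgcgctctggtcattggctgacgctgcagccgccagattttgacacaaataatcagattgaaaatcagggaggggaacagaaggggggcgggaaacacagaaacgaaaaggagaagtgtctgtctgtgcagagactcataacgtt
Mecom, start 1: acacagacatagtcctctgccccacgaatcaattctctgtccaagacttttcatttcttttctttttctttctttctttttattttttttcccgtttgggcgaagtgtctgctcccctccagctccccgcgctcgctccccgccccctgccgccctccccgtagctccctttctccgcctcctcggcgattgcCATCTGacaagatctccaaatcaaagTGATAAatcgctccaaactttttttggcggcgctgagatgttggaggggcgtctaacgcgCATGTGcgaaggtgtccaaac
Mecom, start 2: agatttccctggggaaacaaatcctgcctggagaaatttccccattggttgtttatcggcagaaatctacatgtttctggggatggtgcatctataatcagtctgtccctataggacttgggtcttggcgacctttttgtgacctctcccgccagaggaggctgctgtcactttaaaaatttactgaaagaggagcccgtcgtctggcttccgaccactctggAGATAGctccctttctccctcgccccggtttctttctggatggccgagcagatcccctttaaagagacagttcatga
Myb: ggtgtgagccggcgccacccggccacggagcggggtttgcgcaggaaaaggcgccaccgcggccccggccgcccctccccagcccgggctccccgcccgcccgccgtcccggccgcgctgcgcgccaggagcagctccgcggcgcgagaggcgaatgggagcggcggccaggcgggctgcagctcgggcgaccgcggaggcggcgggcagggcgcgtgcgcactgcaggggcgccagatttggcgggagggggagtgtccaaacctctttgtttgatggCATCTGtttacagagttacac

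In Gfi1b the GATA motif TGATAA began 120 bases before the start, next to a CAAATG E-box, and was the GATA of the only pair of CTG and GATA found at the 9 starts. Mecom had TGATAA at its first listed start and AGATAG at its other, 31 and 27 bases before the start, with CATCTG and CATGTG E-boxes at the first alone. Myb and each start of Gfi1 had 1 E-box and no GATA motif, and neither the start of Hhex nor those of Ikzf1 had any of the motifs. A match is a description of the letters only. The study reports SCL at the transcription start for only a small part of the loci it binds, and sequence further off was not searched. Reads were given per gene, so the starts of Mecom, Gfi1 and Ikzf1 could not be told apart in the expression values.

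Of the 16 nearest tested genes, 1 to each side of the midpoint of each regulator, 2 were called lower, at Myb and Hhex, and the other 14 had log2 fold changes between -0.62 and 0.29. Some of these genes lie far off, such as Rpl22l1, 1144 kb from Mecom, and Lancl1, 2492 kb from Ikzf2. Gm16786, a GENCODE long non-coding RNA model on the opposite strand to Myb that lies within it and shares exon positions with it, was at 10.7, 5.23 and 10.2 CPM in WT and at 0.266, 0.435 and 0.454 CPM in Scl-/- cells (log2 fold change -3.32, limma adjusted p = 0.00287). Like Gfi1b, it reached the minimum level through its WT libraries alone and so could differ in 1 direction only. Whether counting used the strand is not stated, so reads of Myb and of this model cannot be told apart. Hbs1l, the first tested gene wholly beyond Myb on that side, had a log2 fold change of -0.03. Exoc6, a subunit of the exocyst that lies 109.7 kb from Hhex, was at 30.8, 25.4 and 26.7 CPM in WT and at 11.3, 13.9 and 12.5 CPM in Scl-/- cells (log2 fold change -1.11, limma adjusted p = 0.0105). Kif11, on the other side of Hhex, had a log2 fold change of -0.05. Ahi1, which neighbours Myb, was called with the replicate block only (log2 fold change -0.62, limma adjusted p = 0.00424 with the block and 0.166 without). Antisense models with overlapping exons are also annotated at Gfi1 and Mecom, and were not analysed here.

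**Figure D4:**
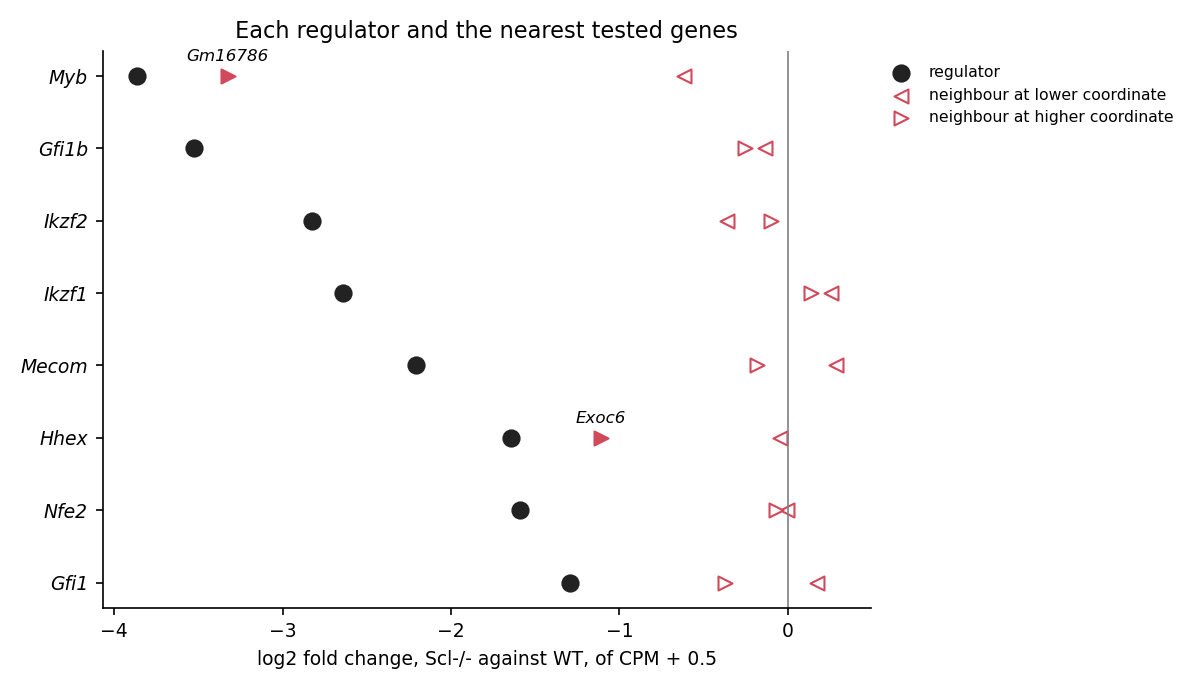
Log2 fold change of each regulator (black) and of the nearest tested gene to each side of its midpoint (triangles, filled where called). Gm16786 at Myb (-3.32) and Exoc6 at Hhex (-1.11) are the filled ones, of which Gm16786 lies within Myb and passed the minimum level through WT libraries alone; the other 14 lie between -0.62 and 0.29.

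The relatives and protein partners of the regulators showed small differences. Of 11 relatives (the other Ikaros, Myb, Nfe2 and Bach genes and Prdm16), 8 were tested, none was called with limma with or without the replicate block, and their median log2 fold change was 0.01; 1 had an unadjusted p under 0.05, and 4 with the block. With the block 3 of these, Nfe2l1, Nfe2l2 and Bach1, had an adjusted p under 0.05 in limma but a log2 fold change too small to be called. Nfe2l1 (0.37) and Nfe2l2 (-0.43) marked the ends of their range. With the block and the chromosome medians removed, Nfe2l1, on chromosome 11, was at 0.065 (limma adjusted p = 0.444). Mybl1, on chromosome 1, was then at 0.476 (limma adjusted p = 0.0183), and neither was called. Ikzf3, Nfe2l3 and Prdm16 were not analysed here. Among 25 cofactors, on 26 rows since Mafg has 2 identifiers, limma called none (3 at an unadjusted p under 0.05, 9 with the block), and with the replicate block it called Rcor3 alone (log2 fold change -0.60), on chromosome 1; with the chromosome medians removed as well, Rcor3 was at -0.31 and not called. With the block 5 cofactor rows had an adjusted p under 0.05 in limma, 4 of them with a log2 fold change too small to be called. Of these 4, a row of Mafg on chromosome 11 went from 0.28 to -0.02 with the chromosome medians removed as well (limma adjusted p = 0.869). The others, Rcor1 (-0.28), Mafk (-0.30) and Tle4 (0.39), then had limma adjusted p of 0.0111, 0.0315 and 0.0122 and were not called. Ehmt2 was not among these 4 (limma adjusted p = 0.0764 with the block alone). With the chromosome medians removed as well it was at -0.22 (limma adjusted p = 0.0382) and was not called. The cofactors summed to 5073, 5288 and 4831 CPM in WT and to 5000, 5097 and 4698 CPM in Scl-/- libraries.

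Some markers of blood cells were lower in Scl-/- cells as well, and their part in the result was not tested. Of 13 erythroid markers 4 were analysed, and 2 of these were called lower: Gata1 (6.75, 3.29 and 10.5 CPM in WT, 0.225, 0.145 and 0.204 in Scl-/-, log2 fold change -3.28) and the embryonic globin Hbb-bh1, which was at 1.33, 0.601 and 1.94 CPM in WT and at 0 in every Scl-/- library, so at least 19.2-fold lower against a floor of 3 reads per library. Epor and Alas2 were called lower with the replicate block only. The list's median was -1.32, and -2.07 with Hbb-bh1 at its bound. Its summed level was 31.3, 19.7 and 41.2 CPM in WT and 13.1, 12.8 and 12.5 CPM in Scl-/- cells, with Epor the most abundant on the WT mean and Alas2 on the Scl-/- mean, and Hba-a1 and Klf1 were among the markers not analysed here. Gata1 and Hbb-bh1, like Gfi1 and Gfi1b, passed the minimum through WT libraries alone.

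Of 9 megakaryocyte markers 3 were analysed (median -0.26), and Itga2b, the most abundant in WT and the least in Scl-/- cells, was called lower (24.8, 12.3 and 30.7 CPM in WT, 2.21, 2.51 and 2.86 in Scl-/-). The list summed to 40.7, 25.2 and 42.4 CPM in WT and 12.1, 15.3 and 15.6 CPM in Scl-/- cells, and Pf4 and Gp9 were among those not analysed here. Of 12 progenitor, myeloid and lymphoid markers 6 were analysed (median -0.79), with Spi1 (-1.81) and Cd34 (-1.91) called lower, Kit and Mpo called lower with the replicate block only and Spn called higher with it. This list summed to 87.4, 51.1 and 96.1 CPM in WT and 61.4, 41.6 and 61.5 CPM in Scl-/- cells, Kit being the most abundant on both group means, and Ptprc, Rag1 and Cd79a were among those not analysed here.

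Among endothelial markers more were lower than higher. Of 15, 14 were analysed (median -1.29) and 4 were called lower, Tie1 (-3.64), Cdh5 (-3.13), Erg (-3.11) and Flt1 (-0.82). With the replicate block 11 were called lower and 2, Flt4 and Robo4, higher; Flt4 lies on chromosome 11, and with the chromosome medians removed as well it was at 0.30 and not called. The list summed to 706, 423 and 797 CPM in WT and 382, 263 and 460 CPM in Scl-/- cells, the lowest library of each group being replicate 2, with Flt1 the most abundant on the WT mean and Flt4 on the Scl-/- mean; the part of these cells in the result was not tested.

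FLK1+ mesoderm markers were mixed. Of 9, all analysed (median 0.78), 2 were called higher and none lower: Etv2 (114, 128 and 138 CPM in WT, 199, 214 and 240 in Scl-/-) and Mixl1 (1.04). The list also held genes that the study ties to early mesoderm (T, Mixl1) or to cardiac or paraxial cells (Mesp1, Pdgfra). By log2 fold change 6 were higher and 3 lower, the latter being Kdr (-0.15), Hand1 (-0.45) and Aplnr (-0.54). With the replicate block 6 were called higher and Aplnr lower, and with the chromosome medians removed as well Hand1, on chromosome 11, was also called lower. Mesp1, called with the block only, was at 30.5, 70.5 and 52.1 CPM in WT, with its highest value in the same WT replicate 2 that was lowest for most regulators. The list summed to 2271, 2582 and 2543 CPM in WT and 2640, 3264 and 3325 CPM in Scl-/- cells, Kdr being the most abundant on both group means. Of 14 endoderm markers, the other lineage in which Hhex acts, 5 were analysed (median 0.85) and limma called none (1 at an unadjusted p under 0.05, 5 with the block); with the replicate block Gsc, Otx2 and Epcam were called higher. Their sum was 51.2, 84.8 and 66.5 CPM in WT and 76.2, 129 and 128 CPM in Scl-/- cells, with Dkk1 the most abundant on both group means, and Foxa1, Foxa2 and Foxa3 were not analysed here. Of 5 pluripotency markers, all analysed (median -0.04), limma called none (1 at an unadjusted p under 0.05, 3 with the block), and with the block Nanog and Pou5f1 were called higher and Esrrb lower; they summed to 88.5, 153 and 113 CPM in WT and 88.3, 228 and 218 CPM in Scl-/- cells, Pou5f1 being the most abundant. The part of any of these lists in the levels of the regulators was not tested.

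**Figure D5:**
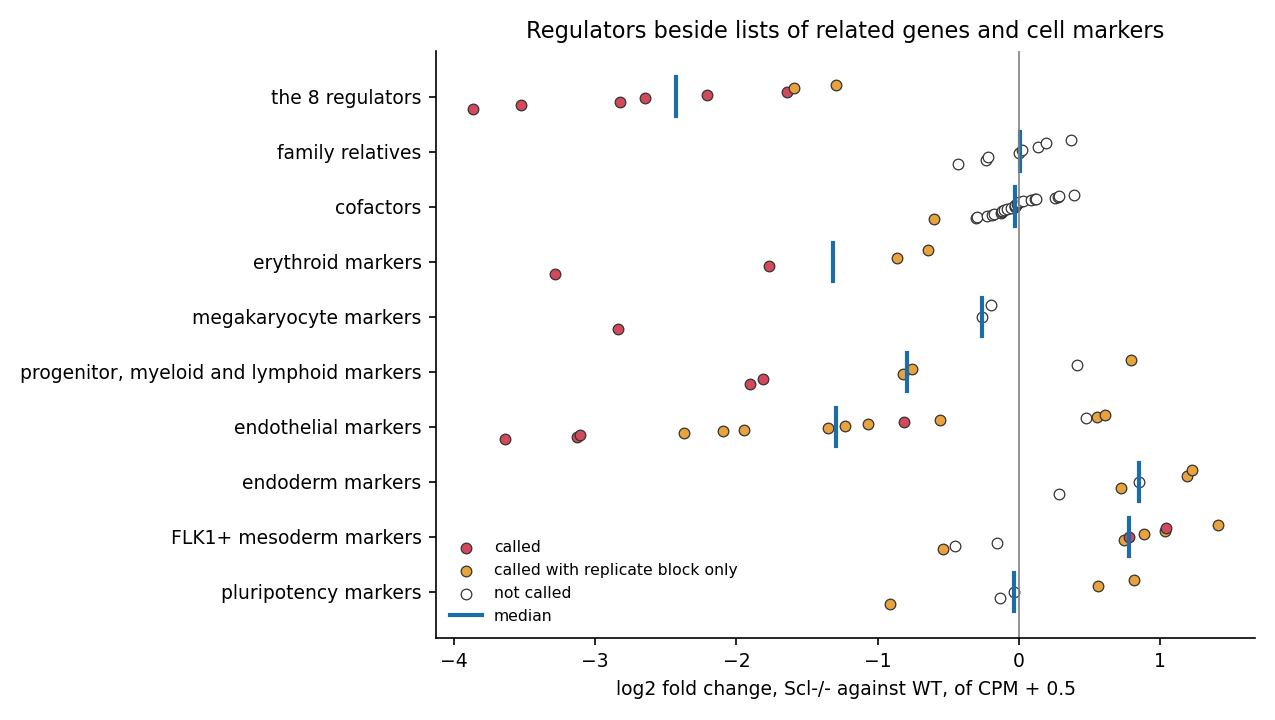
Log2 fold change, Scl-/- against WT, of the 8 regulators and of each gene tested in 9 lists; red points are called, orange points are called with the replicate block only, white points are not called, and blue bars are medians. The regulators (median -2.43) lie to the left of their relatives (0.01) and cofactors (-0.03), and the endothelial (-1.29) and mesoderm (0.78) markers on opposite sides of 0.

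Of the 13 called genes named among these lists and neighbours, Gm16786 was called whichever library was left out while the genes tested were kept, but was not tested in 3 of 6 such fits when the minimum level was applied again, and 12 were not called without WT replicate 1. Cd34 and Cdh5 were called in 2 of the 6 fits that left out a library, and Flt1, Hbb-bh1 and Mixl1 in 1.

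For each regulator the 2 genes most like it over the 6 libraries, by Pearson r of log2(CPM + 0.5) were found as a description among those whose mean reached 1 CPM; the points share the genotype split, so that any gene that follows it scores high. Gfi1b was closest to Gata1 (r = 0.999) and to the potassium channel gene Kcnn1, which changed far less (log2 fold change -0.57). Myb was closest to Nova2 and to its overlapping model Gm16786 (both r = 0.999), Ikzf2 to Scube2 (r = 0.997, log2 fold change -4.25) and Sox6, and Ikzf1 to Cadm3 and Uap1. Hhex was closest to Ptprb, a receptor phosphatase of endothelium (r = 0.996, log2 fold change -2.11), and Rfx2, and Gfi1 to Fgf3 and Thbd, which encodes thrombomodulin. Mecom and Nfe2 were closest to genes with small differences, Nrd1 (-0.24) and Pex5 (-0.39) for Mecom and Gstz1 (-0.27) and Paxip1 (-0.15) for Nfe2.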

How the data were processed

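RNA-seq of FLK1+ day 3.5 EB cells comprised 3 WT and 3 Scl-/- libraries. The authors aligned reads to mm9 with TopHat2 2.0.8b, removed duplicate read pairs, filtered on mapping quality with SAMtools 0.1.19, and deposited CPM values scaled with edgeR's TMM; the counting tool is not given in the sources used here. CPM values were whole multiples of 1 read in 100% of cases within 0.01 reads, which gave reads per library; no count model was run. limma 3.58.1 (R 4.3.3, intensity trend) was fitted to log2(CPM + 0.5) and adjusted by Benjamini-Hochberg over all genes tested; counting intervals are exact binomial at 95%, and cover counting error only. Gene positions came from GENCODE vM1 (mm9), which also named rows with no symbol.

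Same-numbered libraries had deviations from their group means correlated at r = 0.587, 0.756 and 0.748, and differently numbered ones at -0.621 to -0.0996; the series describes 3 independent differentiations, so the numbers were taken to pair the libraries in the replicate block.

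The members and lists were chosen with earlier results of these data known. Named genes were the 8 regulators, Tal1, list genes that were called or otherwise most changed, the nearest tested genes and the 2 most alike genes; other names were chosen after their values were seen. Alternatives are given with the closing observations; the fit was tested on simulated data.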

Additional observations from a re-analysis of the deposited data

How the results depend on the processing

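With the genes tested kept when a library was left out, all 119 fold changes of the 8 regulators under the alternatives were negative; 6 lost and 6 gained a call. With the filter applied again, 42 more were computed, none was reversed, 5 lost and none gained a call. Without a block, 6 regulators were called under each other pseudocount, filter, scaling, trend, fold-change threshold and chromosome setting. With the replicate block 1768 genes were called against 330, and with chromosome medians removed as well 1492; both called all 8 regulators, and the block changed the call of Gfi1 and Nfe2 and of no other regulator. Leaving out 1 library at a time, without the block, gave 44 to 384 genes and 2 to 8 regulators when the genes tested were kept. This version was chosen after seeing the data: with the filter applied again to the 5 libraries left, as was first done, the ranges were 34 to 384 genes and 2 to 6 regulators, and Gfi1 and Gfi1b were not tested in the 3 fits without a WT library. Without WT replicate 3 the count was 128 (88 with the filter applied again), without Scl-/- replicate 2 129, and without Scl-/- replicate 3 162; the cause was not tested. Gfi1 was not tested at a mean of at least 2 CPM. The log2 fold change of Gfi1b ran from -5.16 to -2.74 with the pseudocount, as its Scl-/- libraries held 2 to 5 reads, and that of Gfi1 from -2.25 to -0.88.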
